A study of Mus musculus with 9 samples.

Results

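The genes that make, bind and break down cyclic AMP and cyclic GMP were examined in sorted mouse lung smooth muscle. They were the protein coding genes of the deposited table whose symbols mark them as adenylyl cyclases (Adcy), soluble or membrane guanylate cyclases (Gucy1, Gucy2), natriuretic peptide receptors (Npr1 to Npr3), subunits of the cAMP-dependent kinase (Prkaca, Prkacb and the Prkar genes), cGMP-dependent kinases (Prkg) or cyclic nucleotide phosphodiesterases (Pde). This rule used symbols alone and found 47 of 21049 genes in the table, of which 15963 were protein coding. Of the 47, 39 passed a filter on low values (at least 10 in at least 3 libraries) and were tested. The 8 that did not pass were Adcy10, Gucy1b2, Gucy2c, Gucy2g, Pde4c, Pde6b, Pde6g and Pde6h, none of which was above 20 in any library.

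Cyclic AMP and cyclic GMP are the messengers through which many hormones, prostanoids and nitric oxide relax smooth muscle. Adenylyl cyclases make cAMP when receptors coupled to the stimulatory G protein are engaged, soluble guanylate cyclase makes cGMP when nitric oxide binds it, and the natriuretic peptide receptors Npr1 and Npr2 are themselves guanylate cyclases. The messengers act mainly through their kinases, which lower calcium and favour relaxation, and phosphodiesterases end the signal. In the lung this system is the target of drugs for pulmonary hypertension and airway disease.

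Each of 3 groups was measured in 3 libraries. BSMC were bronchial smooth muscle cells from NVSMC-effector mice of genotype Chrm2/Acta2-CreER/R26-GFP, and PASMC were smooth muscle cells of the pulmonary artery, taken from ASMC-effector mice of genotype Cspg4/Acta2-CreER/R26-GFP. The group total_SMC, titled SmMCll, held smooth muscle of the whole lung, venous cells among it, from tg-Acta2-GFP mice. All 9 libraries were labelled as tamoxifen-treated, and the protocol gave 0.75 mg per 10 g body weight by injection on 3 days. In the first 2 groups the cells were thus marked by a reporter at the R26 locus that recombinases driven by these promoters switch on, while in total_SMC the Acta2 transgene itself marked them. Cell population, mouse line and marking therefore cannot be told apart, and neither age, sex, strain nor the number of animals behind a library is given in the sources used here. Since nothing says that replicates came from separate animals, p-values measure only the spread between these libraries, which may be technical. In bulk RNA, fewer cells of a type and less RNA per cell cannot be told apart either.

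Depth, read as the implied number of reads per library, was 7.14M, 9.33M and 6.39M in BSMC replicates 1 to 3. It was 8.92M to 10.02M in PASMC and 8.93M to 9.90M in total_SMC. All 12 smooth muscle markers of a fixed list were at 10 or more in every library, and summed to 5128 to 6220 CPM (counts scaled to a common library total) in BSMC, 4921 to 5588 in PASMC and 3891 to 4344 in total_SMC. Genes of the lines and of the airway did not all follow the labels. Cspg4, the gene named in the PASMC line, was at 1658 to 2393 in PASMC, 1296 to 1778 in BSMC and 331 to 750 in total_SMC. Chrm2, the muscarinic receptor named in the BSMC line, was at 115 to 223 in BSMC and 199 to 398 in PASMC. The airway muscle genes Hhip (2913 to 3491 against 7414 to 7798) and Lgr6 (2088 to 2601 against 4116 to 4848) were also lower in the libraries labelled BSMC than in those labelled PASMC. The names BSMC and PASMC below are the labels of the libraries. BSMC replicate 2 stood apart from its group: among the 3 BSMC libraries it lay nearest to the PASMC mean in 26 of the 39 tested members and in 58.9% of all 15647 genes tested. It was also the deepest BSMC library, with a depth within the PASMC range, and the part of depth in this was not tested.

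Promoter sequences are shown for 4 members that were lower in total_SMC than in both other groups, Adcy5, Gucy1b1, Npr1 and Pde5a, and for Gucy1a1, the partner of Gucy1b1, which was called in no comparison. Each is the 250 bases before a RefSeq transcription start on build GRCm38.p6, read 5′ to 3′ on the strand of the gene, and capitals mark the GC box GGGCGG and the core of the cAMP response element, TGACG, on either strand. The positions were chr3:82145074-82145323 (minus strand) for Gucy1a1, chr3:82074712-82074961 (minus) for Gucy1b1, chr16:35154614-35154863 (plus) for Adcy5, chr3:90465867-90466116 (minus) for Npr1 and chr3:122728908-122729157 (plus) for Pde5a. For Gucy1a1 the table held 2 starts, and the one found in a GENCODE transcript is shown.
Gucy1a1: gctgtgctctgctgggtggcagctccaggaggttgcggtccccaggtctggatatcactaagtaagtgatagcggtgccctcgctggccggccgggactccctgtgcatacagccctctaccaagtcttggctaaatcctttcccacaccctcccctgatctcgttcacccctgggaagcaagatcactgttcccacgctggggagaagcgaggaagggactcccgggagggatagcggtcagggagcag
Gucy1b1: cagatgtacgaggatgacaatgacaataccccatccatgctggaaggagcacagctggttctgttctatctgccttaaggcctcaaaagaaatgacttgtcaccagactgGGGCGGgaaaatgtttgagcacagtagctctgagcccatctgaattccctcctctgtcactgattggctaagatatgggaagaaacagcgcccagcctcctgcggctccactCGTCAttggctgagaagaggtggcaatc
Adcy5: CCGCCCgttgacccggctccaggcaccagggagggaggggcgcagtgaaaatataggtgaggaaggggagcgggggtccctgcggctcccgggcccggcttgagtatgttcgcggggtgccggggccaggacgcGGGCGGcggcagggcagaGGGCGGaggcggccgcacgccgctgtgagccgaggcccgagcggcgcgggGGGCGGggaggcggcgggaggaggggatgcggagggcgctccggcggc
Npr1: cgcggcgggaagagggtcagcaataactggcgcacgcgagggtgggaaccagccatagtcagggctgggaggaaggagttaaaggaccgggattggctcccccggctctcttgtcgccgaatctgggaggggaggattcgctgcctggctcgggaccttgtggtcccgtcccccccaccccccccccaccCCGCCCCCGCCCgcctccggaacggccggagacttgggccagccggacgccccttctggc
Pde5a: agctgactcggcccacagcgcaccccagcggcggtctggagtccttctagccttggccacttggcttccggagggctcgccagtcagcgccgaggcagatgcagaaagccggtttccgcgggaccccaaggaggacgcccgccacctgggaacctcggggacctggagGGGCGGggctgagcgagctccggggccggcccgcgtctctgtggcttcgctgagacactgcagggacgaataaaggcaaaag
The GC box was in the windows shown for these 4 lower genes, which were chosen after the matches were seen, with first bases 140 bases before the start in Gucy1b1, 250, 116, 98 and 48 before it in Adcy5, 60 and 54 in Npr1 and 82 in Pde5a. It was not in the Gucy1a1 window shown, but was in the window of the other Gucy1a1 start, 238 bases before it. Of Pde4a and Pde4d, also lower in total_SMC than in both other groups and not shown, Pde4d had neither motif in its window and Pde4a had the GC box at 2 of 3 starts. Over windows of 300 bases, 250 before and 50 after each start, 35.7% of 32851 windows in the table and 32 of 74 windows of members (43.2%) held the GC box. TGACG was 28 bases before the start of Gucy1b1, and in 20.8% of all windows and 18 of 74 member windows (24.3%). The full element TGACGTCA, which contains TGACG, was in 1.79% of all windows and in 2 member windows, both of Prkar1a. A CArG box, the letters that serum response factor binds, was in 1.63% of all windows and in 0 of the 74. Sequences were matched for 38 of the 47 members.

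The 39 tested members held calls in both directions in each comparison. Values are normalized read counts given as mean ± SD (n = 3), differences are log2 fold changes on log2(value + 1) with the standard error (SE) of a limma fit over all 9 libraries, and a gene is called at a Benjamini-Hochberg adjusted p under 0.05 over all genes. In PASMC against BSMC 7 members were called (17.9%, against 22.1% of all genes), 6 higher in PASMC (all genes 13.2%) and 1 lower (8.88%). In total_SMC against PASMC 9 were called (23.1%, against 16.2%), 3 higher in total_SMC (9.39%) and 6 lower (6.83%). In total_SMC against BSMC 19 were called (48.7%, against 41.9%), 10 higher (23.7%) and 9 lower (18.2%). Comparisons share groups, so these counts do not stand alone: 21 members were called in at least 1 comparison (53.8%, against 48.7% of all genes) and 18 in none. The median difference of the members was 0.45, -0.34 and 0.01 in these 3 comparisons, against 0.05, 0.03 and 0.05 over all genes. Values of the 2 groups compared did not overlap in 38.5%, 64.1% and 59% of the tested members. Over all genes these shares were 35.2%, 40.5% and 50.5%, so a lack of overlap was common and is not a call. In the plot of fitted differences, phosphodiesterases had called members on both sides of 0 in every comparison. Adenylyl cyclases had them in total_SMC against PASMC and against BSMC. Natriuretic peptide receptors and cAMP-dependent kinase subunits had them in total_SMC against BSMC alone.

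**Figure D1:**
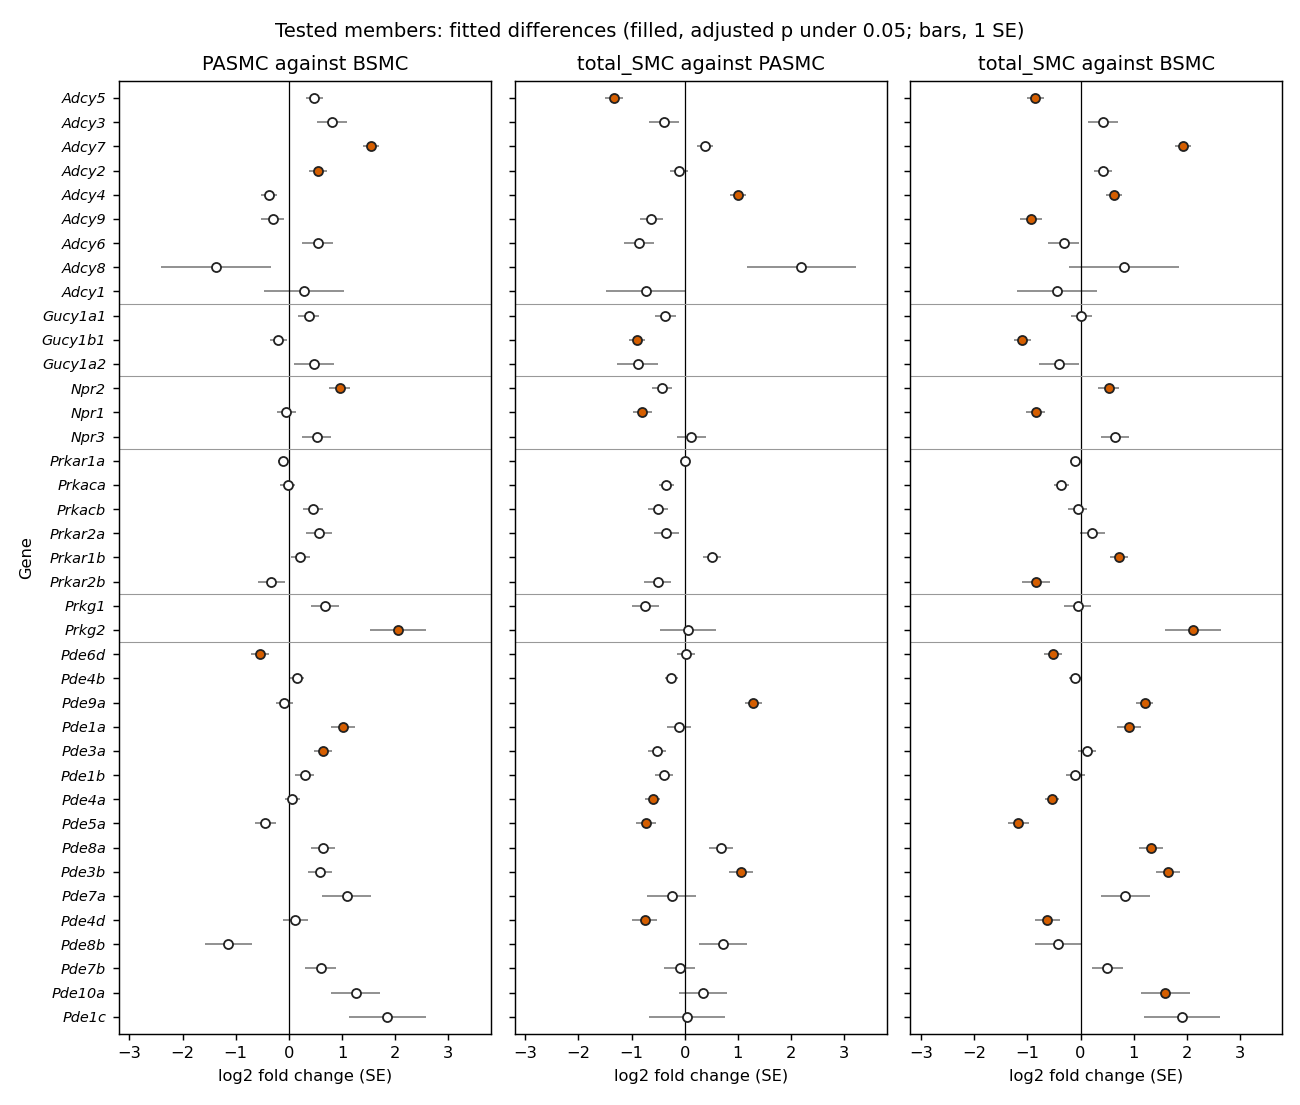
Log2 fold change of each of the 39 tested members in the 3 comparisons, with 1 SE of the limma fit; filled points have an adjusted p under 0.05 and lines divide the families. Filled points number 7, 9 and 19 from left to right, and Adcy7 and Adcy5 lie on opposite sides of 0 in total_SMC against BSMC.

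The count between PASMC and BSMC rested on single libraries. Without BSMC replicate 2 it was 19, with 16 higher and 3 lower, all 7 members among them, and the members added included Adcy3 (1.12, adjusted p = 0.00474), Prkar2a (0.91, adjusted p = 0.00048) and Prkacb (0.66, adjusted p = 0.00576). Without PASMC replicate 1 or 2 it was 4, and 4 also with only these 2 groups in the fit. The calls over all genes moved too, from 3451 to 6698 without BSMC replicate 2. They were 1724 and 1999 without PASMC replicate 1 and 2, and 1926 with only these 2 groups. Between total_SMC and PASMC the count of members was 16 without BSMC replicate 2, 15 without BSMC replicate 3 and 22 with only these 2 groups in the fit. All genes called there were 3219, 3180 and 4345, in place of 2539. The split of higher and lower members was 7 and 3 in the first comparison after quantile normalization and 6 and 0 on implied reads without scaling, 3 and 10 in the second after quantile normalization, and 9 and 4 in the third on implied reads. On implied reads the median of all genes lay at 0.27 in PASMC against BSMC and 0.22 in total_SMC against BSMC.

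Among the enzymes that make cAMP, Adcy7 and Adcy5 were called in opposite directions in total_SMC against BSMC. Of the 10 adenylyl cyclases 9 were tested, and 5 were called in some comparison (55.6%, against 48.7% of all genes). Adcy7, a cyclase stimulated by G protein beta-gamma subunits and best known from blood cells (ENSMUSG00000031659, mm39 chromosome 8, 88999031 to 89056590), was at 591, 797 and 554 in BSMC, 1961, 2005 and 1637 in PASMC, and 2489, 2322 and 2504 in total_SMC. The 3 groups did not overlap and BSMC was lowest. The difference was 1.54 (SE 0.15, adjusted p = 3.52e-05) for PASMC against BSMC and 1.93 (SE 0.15, adjusted p = 3.47e-06) for total_SMC against BSMC. Between total_SMC and PASMC Adcy7 differed by 0.39 without a call (SE 0.15, adjusted p = 0.106). The sum of 15 leukocyte markers was 1096 to 1661 CPM in BSMC, 281 to 296 in PASMC and 250 to 314 in total_SMC, and Ptprc, Cd3e, Itgam, Spi1 and Nkg7 were at 0 in all PASMC libraries. Of these markers 14 were lower in PASMC than in BSMC, and 8 were higher and 1 lower in total_SMC than in PASMC. The sum of 13 fibroblast markers was 4687 to 5528 CPM in BSMC, 5370 to 5989 in PASMC and 6561 to 7266 in total_SMC. Of the fibroblast markers 7 were higher and 0 lower in PASMC than in BSMC, and 4 higher and 1 lower in total_SMC than in PASMC. In total_SMC against BSMC 6 were higher and 0 lower. The part of leukocyte or fibroblast markers in the Adcy7 values was not tested.

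**Figure D2:**
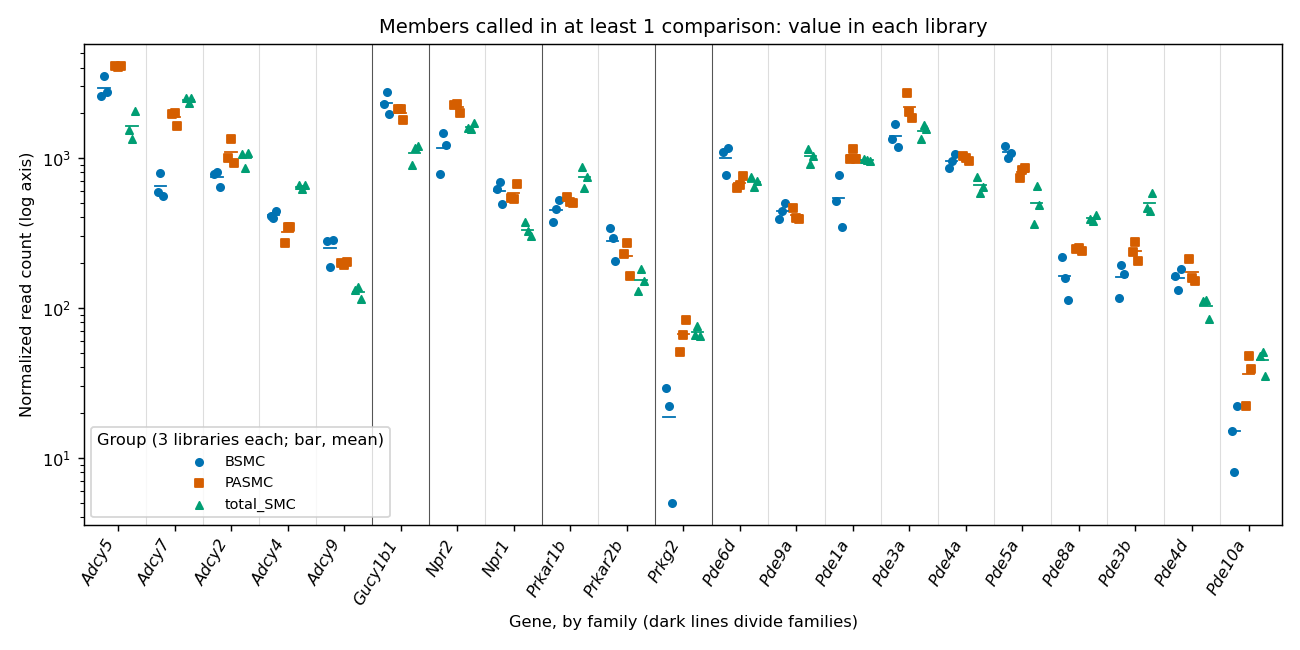
Normalized read count (log axis) of the 21 members called in at least 1 comparison, in each of the 9 libraries, with bars at the group means. Adcy7 is lowest in BSMC at 554 to 797, while Adcy5, Gucy1b1, Npr1 and Pde5a are lowest in total_SMC.

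Adcy5, the calcium-inhibited cyclase of heart muscle and striatum (ENSMUSG00000022840, chromosome 16, 34975247 to 35126108), was at 2583, 3502 and 2739 in BSMC, 4084, 4006 and 4109 in PASMC and 1530, 1328 and 2068 in total_SMC. Again no group overlapped another, but here total_SMC was lowest. It fell by 1.33 against PASMC (SE 0.16, adjusted p = 0.000228) and by 0.85 against BSMC (SE 0.16, adjusted p = 0.00175). Between PASMC and BSMC Adcy5 differed by 0.48 without a call (adjusted p = 0.054), and it passed without BSMC replicate 2 (adjusted p = 0.0105) or total_SMC replicate 2 (0.0473) or 3 (0.031), with a pseudocount of 4 (0.0495), with a mean of at least 50 (0.0491) and with only these 2 groups in the fit (0.0423), in a range of 0.0105 to 0.167 over 17 alternatives. Smooth muscle markers moved with the lower Adcy5 level of total_SMC, at 3891 to 4344 CPM against 4921 to 5588 in PASMC, and their part in it was not tested.

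The ratio of Adcy7 to Adcy5 within a library, which no scaling of libraries can change, was 0.229, 0.228 and 0.202 in BSMC, 0.480, 0.5 and 0.398 in PASMC, and 1.63, 1.75 and 1.21 in total_SMC. The 3 groups did not overlap. This and the other ratios below were chosen after the values were seen and are given with no test. Scaled by exon length and taken as a share of all 10 cyclases, Adcy5 held 37.1 ± 0.6% in BSMC, 34.0 ± 3.3% in PASMC and 17.0 ± 2.1% in total_SMC. Adcy7 held 8.71 ± 0.73%, 16.6 ± 0.5% and 27.3 ± 2.0%. Adcy5 thus had the largest share in every BSMC and PASMC library, and Adcy7 in 2 of the 3 total_SMC libraries.

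**Figure D3:**
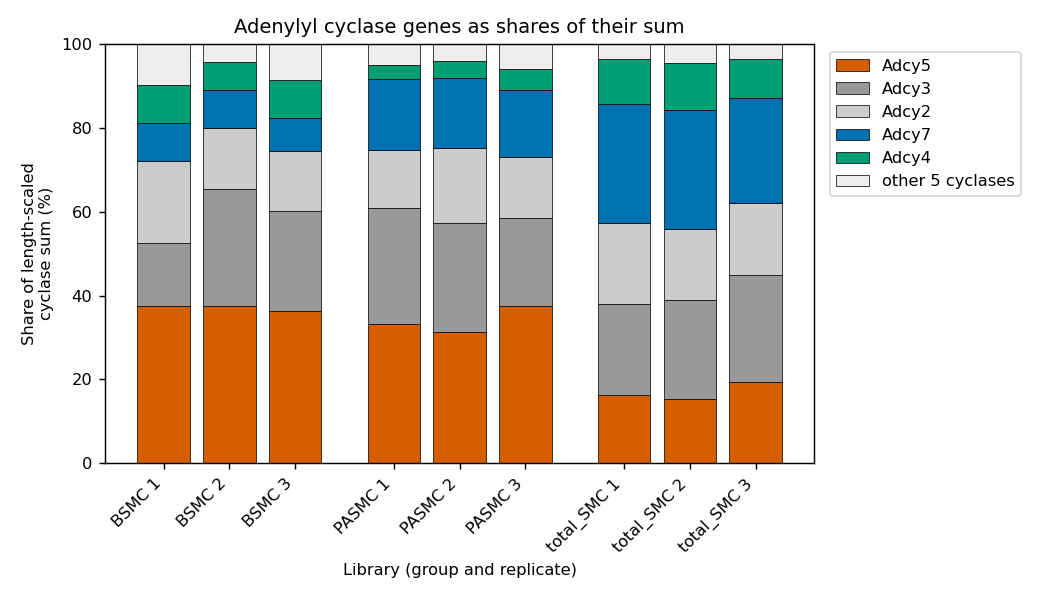
Share of each adenylyl cyclase gene in the sum of normalized counts per exonic base over the 10 cyclases, as a stacked bar per library. The Adcy5 part is 31.3 to 37.6% in BSMC and PASMC and 15.3 to 19.3% in total_SMC, and the Adcy7 part is 7.86 to 9.16% in BSMC and 24.9 to 28.6% in total_SMC.

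Adcy3, a calmodulin-regulated cyclase known from olfactory neurons, was the cyclase with the second highest level per length over all libraries, at 252 ± 109 normalized counts per kb in BSMC, 420 ± 88 in PASMC and 318 ± 56 in total_SMC, and was not called. Its BSMC libraries were far apart, at counts of 906, 2267 and 1547, and replicate 2 lay within the PASMC range of 1991 to 2967. Adcy2, stimulated by beta-gamma subunits like Adcy7, was higher in PASMC (1000, 1330 and 929) than in BSMC (783, 800 and 638), by 0.54 (SE 0.17, adjusted p = 0.0403). Leaving out BSMC replicate 1 (adjusted p = 0.0696) or 3 (0.109) ended that call, as did leaving out PASMC replicate 1 (0.0838) or 2 (0.165), or leaving out total_SMC replicate 1 (0.0588) or 3 (0.0621), quantile (0.0594) or cyclic loess normalization (0.0638), implied reads (0.0585) and a fit of only the 2 groups (0.0822), in a range of 0.0205 to 0.165 over 17 alternatives.

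Adcy4, the other cyclase of the beta-gamma stimulated group, was at 409, 398 and 439 in BSMC, 271, 348 and 348 in PASMC and 654, 622 and 655 in total_SMC. It was higher in total_SMC than in PASMC by 1.00 (SE 0.15, adjusted p = 0.000851) and than in BSMC by 0.63 (SE 0.15, adjusted p = 0.0068). Endothelial markers moved with it: 8 of 12 were higher in total_SMC than in PASMC and 0 lower, and their sum was 1861 to 2391 CPM against 1144 to 1401, with 1473 to 1652 in BSMC. None of the 12 was at 0 in a whole group, and their part in the Adcy4 values was not tested. Adcy9, a widely expressed cyclase little affected by forskolin, was at 278, 187 and 281 in BSMC and 132, 138 and 114 in total_SMC, lower by -0.93 (SE 0.21, adjusted p = 0.00463). Adcy6, the close relative of Adcy5, had group means of 149.7 to 279 and no call. Between total_SMC and PASMC Adcy6 differed by -0.86 (SE 0.28, adjusted p = 0.0623). That difference passed in 6 of 17 alternatives, in a range of 0.00969 to 0.222. Adcy1 and Adcy8, calmodulin-stimulated cyclases of neurons, were at 56 or below in every library.

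Nitric oxide acts on a dimer of an alpha and a beta subunit, and here the subunits did not move alike. Gucy1b1, the beta subunit that carries the haem (ENSMUSG00000028005, chromosome 3, 81939313 to 81981996), was at 2276, 2737 and 1946 in BSMC, 2120, 2106 and 1787 in PASMC and 893, 1163 and 1191 in total_SMC. All 3 total_SMC libraries lay below the other 6. The difference was -0.90 against PASMC (SE 0.16, adjusted p = 0.00213) and -1.10 against BSMC (SE 0.16, adjusted p = 0.000255). Gucy1a1, its main alpha partner (ENSMUSG00000033910, chromosome 3, 81999734 to 82053096), was at 3587, 4829 and 2598 in BSMC, 5378, 4725 and 3865 in PASMC and 3323, 3411 and 4062 in total_SMC, with overlap between all groups and no call. In total_SMC it differed by -0.36 from PASMC (SE 0.20, adjusted p = 0.271) and by 0.01 from BSMC (SE 0.20, adjusted p = 0.969). For PASMC against BSMC the Gucy1a1 difference was 0.38 (SE 0.20, adjusted p = 0.18). Without BSMC replicate 2 that was 0.60 and called (adjusted p = 0.0164). The 2 genes lie on the same strand 17737 bases apart, with 0 other genes of the table between them.

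Within libraries the ratio of Gucy1a1 to Gucy1b1 was 1.58, 1.76 and 1.34 in BSMC, 2.54, 2.24 and 2.16 in PASMC and 3.72, 2.93 and 3.41 in total_SMC, again without overlap between any of the groups. Scaled by length, Gucy1b1 held 53.1 ± 3.4% of the sum over the 4 soluble cyclase genes in BSMC, 43.2 ± 2.05% in PASMC and 34.6 ± 2.7% in total_SMC, and Gucy1a1 held 46.4 ± 3.5%, 56.2 ± 2.0% and 64.9 ± 2.8%. The order of the subunits in BSMC turned with the length used: by the longest transcript in place of the union of exons, Gucy1b1 held 48.2% there and Gucy1a1 51.1%. The alternative alpha subunit Gucy1a2 was at 15 to 41 in all libraries and the beta subunit Gucy1b2 at 0 to 15. The membrane cyclases Gucy2c, the guanylin receptor of the gut, and Gucy2g were at 12 or below.

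**Figure D4:**
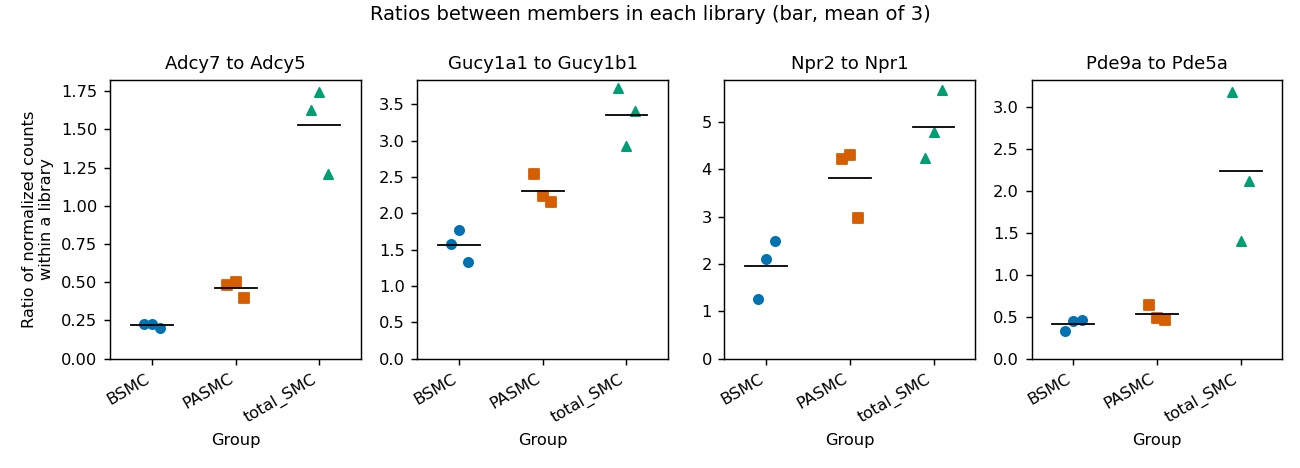
Ratio of normalized counts of pairs of members within each of the 9 libraries, with bars at the means of 3. For Adcy7 to Adcy5 and Gucy1a1 to Gucy1b1 the 3 groups do not overlap; for Npr2 to Npr1 PASMC and total_SMC overlap, and for Pde9a to Pde5a BSMC and PASMC do.

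The natriuretic peptide receptors split between Npr1 and Npr2. Npr1, the receptor for the atrial and B-type peptides (ENSMUSG00000027931, chromosome 3, 90357898 to 90373173), was at 615, 693 and 495 in BSMC, 536, 530 and 669 in PASMC and 374, 324 and 299 in total_SMC. Its difference in total_SMC was -0.80 from PASMC (SE 0.18, adjusted p = 0.00849) and -0.85 from BSMC (SE 0.18, adjusted p = 0.00289). Npr2, the receptor for the C-type peptide (ENSMUSG00000028469, chromosome 4, 43631935 to 43651244), was at 777, 1465 and 1227 in BSMC, 2259, 2281 and 1984 in PASMC and 1588, 1551 and 1697 in total_SMC. PASMC was highest and no groups overlapped, but between total_SMC and PASMC Npr2 differed by -0.43 without a call (SE 0.19, adjusted p = 0.171). Npr2 was higher than in BSMC by 0.96 in PASMC (SE 0.19, adjusted p = 0.00497) and by 0.53 in total_SMC (SE 0.19, adjusted p = 0.046). Npr3, which clears the peptides, was at 191 to 455 over all libraries and was not called.

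The Npr2 to Npr1 ratio was 1.26, 2.11 and 2.48 in BSMC, 4.21, 4.30 and 2.97 in PASMC and 4.25, 4.79 and 5.68 in total_SMC. Every BSMC library was below the other 6. Both Npr1 calls were lost on implied reads without scaling (adjusted p = 0.0621 against PASMC and 0.0726 against BSMC), in ranges over 17 alternatives of 0.00146 to 0.0621 and 0.00067 to 0.0726. The Npr2 call for total_SMC against BSMC did not hold without BSMC replicate 1 (0.26, adjusted p = 0.133), without PASMC replicate 1 (0.0628), 2 (0.0638) or 3 (0.0581), without total_SMC replicate 1 (0.0949), 2 (0.0887) or 3 (0.128), after quantile (0.1) or cyclic loess normalization (0.0793), on implied reads (0.0678) and with only the 2 groups in the fit (0.0841), in a range of 0.00497 to 0.133.

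Of the 8 genes of the kinases that cAMP and cGMP activate, all tested, 3 were called in some comparison. These were 2 of 6 cAMP-dependent kinase subunits (33.3%) and 1 of 2 cGMP-dependent kinases (50%), against 48.7% of all genes. Prkar1a, the regulatory subunit of type I cAMP-dependent kinase (chromosome 11, 109540231 to 109560482), had the highest level per length of all members, 1302 ± 68 normalized counts per kb in BSMC, 1206 ± 41 in PASMC and 1209 ± 87 in total_SMC, and was not called. It was the only member with a mean of at least 1 implied read per exonic base, a density that 235 tested genes reached. The catalytic subunit Prkaca followed at 629 ± 105, 618 ± 69 and 485 ± 30 per kb, and Prkacb at 232 ± 62, 313 ± 50 and 220 ± 25, both without a call. Prkaca in total_SMC against BSMC (-0.37, adjusted p = 0.056) passed in 5 of 17 alternatives, in a range of 0.0113 to 0.377. Prkacb in total_SMC against PASMC (-0.50, adjusted p = 0.0863) passed in 4 of 17, in a range of 0.00969 to 0.286.

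Prkar1b, the type I regulatory subunit known from the nervous system, was at 371, 458 and 521 in BSMC, 549, 508 and 500 in PASMC and 865, 627 and 747 in total_SMC, and was higher in total_SMC than in BSMC by 0.73 (SE 0.17, adjusted p = 0.00589). Prkar2b, a type II regulatory subunit, went the other way, at 341, 291 and 206 against 129, 182 and 151 (-0.84, SE 0.25, adjusted p = 0.0214). The Prkar2b call did not hold without BSMC replicate 1 (adjusted p = 0.0769) or total_SMC replicate 1 (0.0791) or 3 (0.0646) and on implied reads (0.147), in a range of 0.00555 to 0.147. Prkar2a was at 876, 1659 and 741 in BSMC and 1416 to 1625 in PASMC, so that BSMC replicate 2 alone lay above the PASMC libraries.

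Prkg1, the cGMP-dependent kinase of smooth muscle (chromosome 19, 30541889 to 31742433), was at 381, 593 and 362 in BSMC, 855, 603 and 661 in PASMC and 287, 479 and 531 in total_SMC. The 3 PASMC libraries were above the other 6, but Prkg1 was not called (adjusted p = 0.0762 against BSMC and 0.0791 for total_SMC against PASMC). Both comparisons passed without BSMC replicate 2 (adjusted p = 0.015 and 0.0404), and the second also after quantile normalization (0.0414) and with only the 2 groups in the fit (0.023), in ranges of 0.015 to 0.243 and 0.023 to 0.293. Prkg2, the membrane-bound kinase known from gut and growth plate, was low throughout, at 29, 22 and 5 in BSMC, 51, 66 and 83 in PASMC and 66, 75 and 65 in total_SMC. It was higher than in BSMC by 2.05 in PASMC (SE 0.52, adjusted p = 0.0179) and by 2.11 in total_SMC (SE 0.52, adjusted p = 0.00808). Without BSMC replicate 3 these were 1.34 (adjusted p = 0.0158) and 1.40 (0.00657), and the first call was lost without PASMC replicate 2 (0.0564) or 3 (0.0556) and with only the 2 groups in the fit (0.0604), in a range of 0.00646 to 0.0604.

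Of the 20 phosphodiesterase genes 16 were tested and 10 were called in some comparison (62.5%, against 48.7% of all genes). The cGMP-specific enzymes ran in opposite directions in total_SMC against each of the other groups. Pde5a, the target of sildenafil (ENSMUSG00000053965, chromosome 3, 122522596 to 122653023), was at 1199, 999 and 1076 in BSMC, 728, 829 and 850 in PASMC and 360, 644 and 488 in total_SMC. No groups overlapped and total_SMC was lowest, but between PASMC and BSMC Pde5a differed by -0.44 without a call (SE 0.19, adjusted p = 0.113). The difference was -1.17 against BSMC (SE 0.19, adjusted p = 0.000706) and -0.73 against PASMC (SE 0.19, adjusted p = 0.0236). Pde9a, which has a high affinity for cGMP (ENSMUSG00000041119, chromosome 17, 31605184 to 31695284), was at 390, 442 and 499 in BSMC, 462, 399 and 393 in PASMC and 1144, 903 and 1032 in total_SMC. It was higher in total_SMC by 1.29 than in PASMC (SE 0.16, adjusted p = 0.000208) and by 1.21 than in BSMC (SE 0.16, adjusted p = 0.000128).

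The Pde9a to Pde5a ratio was 0.325, 0.442 and 0.464 in BSMC, 0.635, 0.481 and 0.462 in PASMC and 3.18, 1.40 and 2.11 in total_SMC. BSMC and PASMC overlapped, and total_SMC lay above both. The Pde5a call between total_SMC and PASMC was lost without PASMC replicate 2 (adjusted p = 0.084) or 3 (0.0827), total_SMC replicate 1 (0.0915) or 3 (0.0731) and on implied reads (0.0595), in a range of 0.00792 to 0.0915. Mesothelial markers moved with Pde9a in total_SMC, at 641 to 811 CPM in total_SMC, 30.2 to 49.8 in PASMC and 76.4 to 173.5 in BSMC, with all 8 markers higher in total_SMC than in PASMC and Bnc1 at 0 in all PASMC libraries. In PASMC against BSMC 6 of the 8 were lower and 0 higher. There Pde9a differed by -0.08 without a call (SE 0.16, adjusted p = 0.718). The part of mesothelial markers in the Pde9a values was not tested.

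The dual enzymes of the calcium and calmodulin stimulated group were headed by Pde1a, at 512, 765 and 348 in BSMC, 987, 1154 and 987 in PASMC and 976, 969 and 959 in total_SMC. Pde1a was lower in BSMC than in both other groups, by 1.01 for PASMC against BSMC (SE 0.23, adjusted p = 0.00948) and 0.91 for total_SMC against BSMC (SE 0.23, adjusted p = 0.00848). Pde1b was at 540 to 880 over all libraries and Pde1c at 1 to 35, both without a call. Pde10a, a dual enzyme of the striatum, was at 15, 8 and 22 in BSMC and 48, 51 and 35 in total_SMC (1.60, SE 0.45, adjusted p = 0.0156). That call was lost without total_SMC replicate 1 (adjusted p = 0.0534) or 2 (0.0584), in a range of 0.00654 to 0.0584 over 16 alternatives.

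The cGMP-inhibited cAMP enzymes Pde3a and Pde3b had their highest means in different groups. Pde3a, the form of heart and smooth muscle, was at 1332, 1689 and 1187 in BSMC, 2711, 2036 and 1853 in PASMC and 1335, 1652 and 1566 in total_SMC, and was higher in PASMC than in BSMC by 0.65 (SE 0.17, adjusted p = 0.0214). Between total_SMC and PASMC Pde3a differed by -0.52 without a call (SE 0.17, adjusted p = 0.0613). That difference passed in 5 of 17 alternatives, in a range of 0.015 to 0.238. Pde3b, the form of fat and liver, was at 117, 194 and 169 in BSMC, 234, 273 and 205 in PASMC and 462, 441 and 586 in total_SMC. Its level in total_SMC was above PASMC by 1.06 (SE 0.22, adjusted p = 0.0064) and above BSMC by 1.65 (SE 0.22, adjusted p = 0.00018). The Pde3a call did not hold without BSMC replicate 1 (adjusted p = 0.0668) or 3 (0.0621), without PASMC replicate 1 (0.101) and with only the 2 groups in the fit (0.0512), in a range of 0.00392 to 0.101.

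Among the cAMP-specific enzymes, Pde4b had the highest level per length, 199 ± 29 normalized counts per kb in BSMC, 220 ± 9 in PASMC and 185 ± 19 in total_SMC, and was not called. Pde4a was at 849, 955 and 1057 in BSMC, 1036, 998 and 949 in PASMC and 749, 587 and 637 in total_SMC, lower in total_SMC by -0.60 than in PASMC (SE 0.14, adjusted p = 0.0117) and by -0.54 than in BSMC (SE 0.14, adjusted p = 0.0104). Pde4d was at 132 to 180, 150 to 212 and 84 to 112, lower in total_SMC by -0.75 (SE 0.23, adjusted p = 0.0492) and -0.63 (SE 0.23, adjusted p = 0.0492). Pde8a, a cAMP enzyme not inhibited by the common blocker IBMX, rose from 217, 157 and 113 in BSMC to 389, 377 and 416 in total_SMC (1.32, SE 0.22, adjusted p = 0.000795), with PASMC between them at 240 to 249. Pde7a, Pde7b and Pde8b were at 209 or below in every library and were not called.

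The Pde4a call against PASMC was lost without PASMC replicate 1 (adjusted p = 0.0532) or total_SMC replicate 2 (0.0574) or 3 (0.0538), in a range of 0.00246 to 0.0574, and that against BSMC on implied reads (0.153), in a range of 0.00166 to 0.153. Both Pde4d calls were close to the threshold. The first was lost without BSMC replicate 1 (0.0513), PASMC replicate 1 (0.193), 2 (0.0986) or 3 (0.0707), without total_SMC replicate 1 (0.0919), 2 (0.0883) or 3 (0.205), without a filter (0.0601) and on implied reads (0.0571), in a range of 0.0201 to 0.205. The second was lost without each library but BSMC replicate 2 (adjusted p of 0.0557 to 0.182), and also with a pseudocount of 4 (0.0502), without a filter (0.0619), on implied reads (0.169) and with only the 2 groups in the fit (0.0834), in a range of 0.0197 to 0.182.

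Pde6d carries a phosphodiesterase symbol but encodes a carrier of prenylated proteins. It was at 1088, 769 and 1156 in BSMC, 625, 656 and 760 in PASMC and 744, 638 and 702 in total_SMC, lower by -0.54 in PASMC (SE 0.17, adjusted p = 0.0402) and by -0.51 in total_SMC (SE 0.17, adjusted p = 0.0307) than in BSMC. Leukocyte markers (14 of 15 lower in PASMC and 15 of 15 in total_SMC) and erythroid markers (5 and 4 lower of 5 tested) were also lower than in BSMC. The erythroid sum was 35.0 to 85.2 CPM in BSMC, 0.81 to 2.34 in PASMC and 8.82 to 16.8 in total_SMC, with Slc4a1 at 0 in all PASMC libraries. The part of these markers in the Pde6d values, and in the lower Adcy9 and Prkar2b values of total_SMC, was not tested. The first call did not hold without BSMC replicate 1 (adjusted p = 0.121) or 3 (0.114), without PASMC replicate 1 (0.14) or 2 (0.119), without total_SMC replicate 1 (0.0575), 2 (0.0567) or 3 (0.066), on implied reads (0.166) and with only the 2 groups in the fit (0.0911), in a range of 0.00205 to 0.166. The second was lost without BSMC replicate 1 (0.0924) or 3 (0.0953), without total_SMC replicate 1 (0.0513), 2 (0.102) or 3 (0.0807), on implied reads (0.112) and with only the 2 groups in the fit (0.0581), in a range of 0.00165 to 0.112.

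Of 95 other genes of the pathway on fixed lists 81 were tested. The lists were chosen with earlier results of these data known. Their shares here and below are thus a description and no test of an excess over all genes. In PASMC against BSMC 19 were higher (23.5%, against 13.2% of all genes) and 12 lower (14.8%, against 8.88%). In total_SMC against PASMC 14 were higher (17.3%, against 9.39%) and 17 lower (21%, against 6.83%), and in total_SMC against BSMC 24 (29.6%, against 23.7%) and 26 (32.1%, against 18.2%). Nppa and Nppb, the atrial and B-type natriuretic peptides that act on Npr1, were at 42, 82 and 59 and at 13, 21 and 31 in BSMC. In PASMC Nppa was at 3, 4 and 20 and Nppb was listed at 0 in all libraries, and in total_SMC Nppa was at 2, 3 and 0 and Nppb at 0, 2 and 0. Nppa was called lower in PASMC (adjusted p = 0.0156) and total_SMC (0.000525) than in BSMC, as was Nppb (0.00166 and 0.00184). Cardiac markers, a list that includes Nppa, summed to 536.5 to 904.2 CPM in BSMC, 483 to 580 in PASMC and 309 to 340 in total_SMC, and their part in the peptide values was not tested. Without PASMC replicate 1 or 2 the Nppa call between PASMC and BSMC was lost (0.0713 and 0.0623; range 0.00383 to 0.0713), and without PASMC replicate 3 its difference was -3.74 in place of -3.00. Without total_SMC replicate 3 the difference of Nppa between total_SMC and BSMC was -4.11 in place of -4.71.

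Receptors that raise cAMP were called in both directions. Adcyap1r1, the receptor for the peptide PACAP, was at 9, 32 and 58 in BSMC, 125, 112 and 139 in PASMC and 892, 806 and 866 in total_SMC. It was higher in total_SMC than in PASMC by 2.76 (adjusted p = 0.00217) and than in BSMC by 4.99 (adjusted p = 1.91e-05), the latter 4.28 without BSMC replicate 1. Vipr2, a receptor for the related vasoactive intestinal peptide, was at 4, 8 and 28 in BSMC, 100, 92 and 94 in PASMC and 193, 171 and 216 in total_SMC. It was higher than in BSMC by 3.14 in PASMC (adjusted p = 0.0013) and by 4.15 in total_SMC (adjusted p = 9.62e-05), and by 3.84 and 4.85 without BSMC replicate 3. Of 14 such receptors and their partners tested, 5 were higher and 3 lower in PASMC than in BSMC, 5 higher and 2 lower in total_SMC than in PASMC, and 6 higher and 3 lower in total_SMC than in BSMC. The shares of all genes called higher and lower were 13.2% and 8.88%, 9.39% and 6.83%, and 23.7% and 18.2%. Of the 7 G protein subunits tested, 0 were called between PASMC and BSMC, with Gnai2 at 3403 to 4536 in BSMC and 3132 to 3528 in PASMC and Gnai1 at 1218 to 2489 and 2184 to 2570. In total_SMC 2 of the 7 were lower than in PASMC and 3 lower than in BSMC, with 0 higher in either.

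Downstream, 19 kinase substrates and targets were tested. Ppp1r1b, the inhibitor of protein phosphatase, was at 460, 389 and 431 in BSMC, 432, 524 and 502 in PASMC and 43, 41 and 56 in total_SMC, a difference of -3.36 from PASMC (adjusted p = 2.27e-06) and -3.18 from BSMC (adjusted p = 5.28e-07). Kcnma1, the large-conductance potassium channel that cGMP-dependent kinase opens, was at 693, 562 and 609 in PASMC and 153, 182 and 191 in total_SMC (-1.82, adjusted p = 0.000147). Bves, a cAMP-binding membrane protein of muscle from the list of other effectors, was at 407, 393 and 519 in PASMC and 159, 115 and 187 in total_SMC (-1.53, adjusted p = 0.000818). In total_SMC against PASMC 0 of the 19 substrates and targets were higher (all genes 9.39%) and 8 lower (6.83%), in PASMC against BSMC 5 were higher (13.2%) and 1 lower (8.88%), and in total_SMC against BSMC 2 were higher (23.7%) and 9 lower (18.2%). In total_SMC against PASMC 4 of 12 smooth muscle markers and 6 of 8 cardiac markers were lower too, with 0 higher, and their part in these values was not tested.

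Irag1, Rgs2 and Vasp, substrates of cGMP-dependent kinase, were picked from the 19 substrates and targets after their values were seen. The median difference of all 19 was -0.006 in PASMC against BSMC. It was -0.61 in total_SMC against PASMC and -0.37 in total_SMC against BSMC. Irag1, which links the kinase to calcium stores, was at 1293, 2064 and 1632 in BSMC, 3740, 2958 and 2573 in PASMC and 1325, 1346 and 1812 in total_SMC. It was higher in PASMC than in BSMC by 0.90 (adjusted p = 0.00738) and lower in total_SMC than in PASMC by -1.05 (adjusted p = 0.00315). Rgs2, a brake on contractile receptors, was at 2457 to 3153 in BSMC, 2751 to 2867 in PASMC and 1121 to 1394 in total_SMC, lower in total_SMC by -1.14 than in PASMC (adjusted p = 0.000115) and by -1.14 than in BSMC (adjusted p = 4.26e-05). Vasp, an actin-associated phosphoprotein, was at 1998 to 2511, 1573 to 1731 and 959 to 1125. It was lower in PASMC than in BSMC by -0.45 (adjusted p = 0.0241), a call that ended without BSMC replicate 1 (0.061) or 3 (0.069), without PASMC replicate 1 (0.0803) or 2 (0.0939), on implied reads (0.27) and with only the 2 groups in the fit (0.0519), in a range of 0.00395 to 0.27. Vasp was also lower in total_SMC by -0.67 than in PASMC (adjusted p = 0.0027) and by -1.11 than in BSMC (adjusted p = 4.2e-05).

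The remaining genes named by rule had low values. Pkib, an inhibitor of the catalytic subunit, was at 76, 56 and 97 in BSMC and 17, 11 and 22 in PASMC (-2.15, adjusted p = 0.00642). Nos2, the inducible nitric oxide synthase, was at 0, 3 and 0 in BSMC, 8, 9 and 10 in PASMC and 40, 111 and 43 in total_SMC, and was called higher than in BSMC in both (adjusted p = 0.0165 and 0.000125). Calca, the calcitonin gene-related peptide gene, was at 6, 1 and 1 in BSMC and 9, 9 and 50 in PASMC (adjusted p = 0.0366). Its relative Calcb was listed at 0 in all PASMC libraries and was at 59, 117 and 59 in total_SMC (adjusted p = 0.00059), and Cngb1, a subunit of cyclic nucleotide-gated channels, was at 1, 0 and 7 and at 19, 19 and 14 (adjusted p = 0.0212). Single libraries decided 3 of these calls. Nos2 between PASMC and BSMC was lost without BSMC replicate 1 (0.0504), without PASMC replicate 1 (0.0509) or 2 (0.0515) and with only the 2 groups in the fit (0.0781), in a range of 0.00172 to 0.0781, and without BSMC replicate 2 its differences were 3.32 in place of 2.65 and 5.87 in place of 5.21. Calca was lost without BSMC replicate 2 (0.0541) or 3 (0.0868), without PASMC replicate 1 (0.0528) or 3 (0.116), without total_SMC replicate 2 (0.0571) or 3 (0.0607), with a pseudocount of 4 (0.0506) and with only the 2 groups in the fit (0.0994), in a range of 0.0148 to 0.116, and its difference of 2.50 was 3.11 without BSMC replicate 1 and 1.72 without PASMC replicate 3. Cngb1 was lost without PASMC replicate 1 (0.0701) or 2 (0.0817), without total_SMC replicate 1 (0.0823), 2 (0.0819) or 3 (0.0614), in a range of 0.00491 to 0.0823, and its difference of 2.85 was 2.18 without PASMC replicate 2 and 3.68 without PASMC replicate 3.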

How the data were processed

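RNA sequencing libraries (SMART-Seq v4, at most 10 ng RNA) of sorted lung smooth muscle cells were analysed, 9 in all. The submitters' processing notes name build mm39, DESeq2 1.36.0 and featureCounts 2.0.4, besides STAR 2.7.11a, Trimmomatic 0.39 and Picard 3.1.1, without their order. The deposited values, recorded here as a score, are normalized read counts per gene that the authors scaled and rounded to whole numbers, as the values themselves show. A factor per library was recovered from the spacing of the whole numbers, and dividing by it gave the implied reads. Whether counting used strand is not given in the sources used here, so overlapping antisense genes may share reads, and reads carry no molecular identifiers.

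The 15647 genes that reached 10 in 3 or more libraries were fitted as log2(value + 1) on 3 group means over all 9 libraries with limma 3.58.1 in R 4.3.3 (eBayes with trend and robust options), with Benjamini-Hochberg adjustment over all genes. The fit was tested on simulated data. Levels between genes were compared per kb of exon union (GENCODE vM21, matched by identifier for all 47 members, used for lengths only). CPM is a gene's count per one-millionth of the library's normalized total. Members, lists and ratios were chosen with earlier results of these data known. By rule, every called member and the 3 most abundant of a family were named, and from the pathway lists up to 3 called genes per direction and comparison, plus 2 abundant genes of a list without a call. Alternatives were a pseudocount of 4, no filter or a mean of at least 50, quantile and cyclic loess normalization, implied reads, a replicate block, a fit of only the 2 groups compared, and leaving out each library. Promoter sequences are RefSeq's, on GRCm38.p6, which is not the build of the table, and coordinates were not converted. Python 3.11.15, numpy 2.4.6, pandas 2.3.3 and matplotlib 3.10.9 made tables and plots.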

Additional observations from a re-analysis of the deposited data

How the results depend on the processing

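Of 35 calls of members over the 3 comparisons, 20 were kept under all 17 alternatives, 15 were lost in at least 1 and 0 changed direction. With only the 2 groups compared in the fit, the members called were 4 in place of 7 (PASMC against BSMC) and 22 in place of 9 (total_SMC against PASMC), and all genes called were 1926 in place of 3451 and 4345 in place of 2539; the cause was not tested. Leaving out 1 library gave 4 to 19 members and 1724 to 6698 genes in PASMC against BSMC, 6 to 16 and 1679 to 3219 in total_SMC against PASMC, and 15 to 25 and 4373 to 8370 in total_SMC against BSMC, where all libraries gave 19 and 6553. After quantile normalization the calls over all genes, higher and lower, were 2017 and 2072 in place of 2062 and 1389 in PASMC against BSMC, and 3217 and 4049 in place of 3706 and 2847 in total_SMC against BSMC. On implied reads they were 1891 and 690, and 3394 and 1554. Same-numbered libraries of different groups had correlations of their deviations from -0.124 to 0.136, and differently numbered ones from -0.19 to 0.14. With 3 libraries per group, these values cannot show whether replicate numbers pair the samples. With the replicate number as a block the members called were 6, 8 and 19 and all genes 3287, 2286 and 6350. The block ended the calls of Adcy2 between PASMC and BSMC (adjusted p = 0.0549), of Pde4d in both comparisons (0.0747 and 0.0668) and of Calca (0.0532). Depth limits members with few counts, such as Prkg2 and Pde10a.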

Other observations

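The called member with the largest F statistic was Adcy7, and the genes whose pattern over the 9 libraries was most like it were Bltp2, Atp8b2, Evi5l, Pi4ka and Tgfbr3. Pearson's r of log2 values was 0.996, 0.995, 0.994, 0.993 and 0.991, as a description of points that share libraries and groups. Tgfbr3, a co-receptor for transforming growth factor beta, had means of 1722 ± 333 (BSMC), 3540 ± 297 (PASMC) and 4366 ± 379 (total_SMC). Pi4ka, a phosphatidylinositol kinase, was at 280.3 ± 52.7, 602 ± 37 and 720 ± 75, and Atp8b2, a phospholipid flippase, at 636 ± 136, 1475 ± 130 and 1842 ± 59. All 5 genes thus had their lowest mean in BSMC and their highest in total_SMC, as Adcy7 did.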
